A study of Homo sapiens with 66 samples.

Results

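Retinoic acid is a vitamin A derivative that patterns the spinal cord. The 10 genes described here make it, destroy it, bind it in the cytoplasm or read it in the nucleus: ALDH1A1 and ALDH1A2 (synthesis), CYP26A1, CYP26B1 and CYP26C1 (breakdown), CRABP1 and CRABP2 (cellular binding proteins), and RARA, RARB and RARG (receptors). They were chosen by name, and all 10 were found among the 60603 gene identifiers of the count tables. Bulk RNA sequencing of H9 cells, an established human embryonic stem cell line, gave 66 libraries in 22 groups of 3.

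The groups follow H9 cells along a single route. Undifferentiated cells (hESC) were plated for a day in mTeSR stem cell medium and then moved to medium with FGF2, CHIR99021, SB431542 and Dorsomorphin, sampled as hNMP-D1 to hNMP-D4 (neuromesodermal progenitors), so hNMP-D1 cells had seen only mTeSR. They were replated in neural determination medium with FGF2, FGF8, CHIR99021, SB431542, Dorsomorphin and Compound E (NeuDet-D1 to NeuDet-D6). Spinal cord neural progenitors (hSCNPC) were passaged with Purmorphamine, SB431542 and CHIR99021 and sampled at passages 5, 10, 20, 30 and 40. Motor neurons (hMN) were made with Purmorphamine, Compound E, BDNF, GDNF and NT-3 and sampled at days 6, 12, 18, 24, 30 and 42. All groups come from 1 cell line, with no genetic change named, and, while the statistics section of the study speaks of independent experiments in general, nothing ties this to the RNA libraries, so p-values measure only the spread between these libraries, which may be technical.

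The study's methods list no retinoic acid at any stage, and the supplement named for the hNMP, NeuDet and motor neuron media is a version without vitamin A. The vitamin A content of the medium in which hSCNPC were passaged is not stated. There is thus no group with added retinoic acid to set beside the levels below.

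Cells oxidise retinol to retinaldehyde and retinaldehyde to retinoic acid, the last step by ALDH1A enzymes. In the embryo, somitic mesoderm beside the neural tube makes retinoic acid with ALDH1A2, and later a subset of limb-level motor neurons expresses ALDH1A2 as well. CYP26 enzymes clear retinoic acid and keep the tail bud low in it, CRABP proteins carry it, and RAR proteins pair with RXR partners on DNA, where they hold genes off without ligand and switch them on with it. RARB and CYP26A1 are textbook direct targets, each with a retinoic acid response element called DR5, a direct repeat of a 6-base half-site with 5 bases between the copies.

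The DR5 elements of these promoters are shown because they link RARB and CYP26A1, both known to be induced by the ligand in many cell types, to the receptors in the same list. A search was made on both strands of RefSeq promoter windows (250 bases before to 50 after each start, GRCh38.p14) for half-sites that read A or G, then G, then G or T, then TCA. All 10 genes matched the promoter table, with 17 windows. RARB and CYP26A1 were the 2 members with a DR5 element, and 31 of all 35116 windows (0.0883%) held one. No member window held the related DR2 element, which was in 14 windows (0.0399%), and this says only that those letters are not in the windows. The 2 stretches are written 5′ to 3′ on the strand of the gene, which is the plus strand for both, with the element in capitals. In the GENCODE annotation both genes begin further upstream, so the same bases also lie within the bounds of each gene.
RARB, chr3:25428204-25428232, element from 53 to 37 bases before the start, on the strand of the gene: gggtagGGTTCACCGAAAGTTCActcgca
CYP26A1, chr10:93073797-93073825, element from 90 to 74 bases before the start, on the other strand: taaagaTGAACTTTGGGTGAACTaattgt

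Total counts per library ranged from 14142238 to 40204753 (median 20676228). Levels are given as counts-per-million (CPM) after TMM scaling over all 66 libraries, and levels of different genes are compared only per kilobase of merged exon. The stage labels were checked against markers. The 5 pluripotency markers summed to between 1556 and 1607 CPM in hESC, but this list did not single out hESC. It summed to between 1841 and 1910 CPM in hNMP-D1 and between 645 and 726 CPM in hNMP-D4, where all 5 still reached 1 CPM. All 5 neural progenitor markers reached 1 CPM in every hSCNPC group, and at least 5 of 6 motor neuron markers did so in every hMN group. That mark alone did not set these stages apart. In hSCNPC-P10, 4 of 6 motor neuron markers reached it, with a sum of 7.99 to 9.27 CPM against 45.2 to 46.5 CPM in hMN-D6. In every hMN group, 4 of 5 neural progenitor markers still reached it, with a sum of 1330 to 1389 CPM in hMN-D6 and 473 to 479 CPM in hMN-D42. The sum of 5 neuromesodermal markers lay between 33.0 and 38.9 CPM over the hESC libraries, between 165 and 309 CPM over those of hNMP-D4, where 4 of 5 reached 1 CPM, and between 641 and 1031 CPM over those of NeuDet. TBXT averaged 0.248 to 0.916 CPM in hNMP-D1 to hNMP-D3, and the 3 hNMP-D4 libraries differed among themselves, with TBXT at 6.19, 3.18 and 3.44 CPM and CDX2 at 56.7, 26.9 and 14.2 CPM. In bulk RNA, fewer cells with a transcript and less transcript per cell cannot be told apart.

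RARG was the main receptor in every NeuDet group and RARA in every group of passaged progenitors. Markers of cell types changed at the same step: the sum of 5 neuromesodermal markers was 641 to 695 CPM in NeuDet-D6 and 0.296 to 0.896 CPM in hSCNPC-P5, that of 5 neural progenitor markers was 911 to 969 CPM and 3901 to 3995 CPM, and that of 5 neural crest markers was 22.3 to 23.0 CPM and 174 to 184 CPM. Their part in the receptor levels was not tested. RARG (chr12:53210567-53232980, minus strand; ENSG00000172819.17) is the receptor form of the early embryo. It was at 70.5, 63.3 and 65.9 CPM in the 3 hESC libraries and at 61.8, 59.97 and 59.4 CPM in hNMP-D1. In hNMP-D2, after the first day in differentiation medium, it was at 17.3, 19.9 and 17.0 CPM, which is a log2 difference of -1.74 ± 0.101 (SE; edgeR adjusted p = 1.9e-20). RARG rose again to 109.7, 114 and 113 CPM in NeuDet-D1 (log2 fold change from hNMP-D4 1.67 ± 0.0930, adjusted p = 2.76e-21, edgeR) and was highest in NeuDet-D4, at 176, 172 and 176 CPM. NeuDet-D6 still held 116, 118 and 113 CPM, and hSCNPC-P5 held 2.66, 3.05 and 3.16 CPM. That fall, by 5.28 ± 0.129 on the log2 scale (edgeR adjusted p = 5.23e-37), left no overlap between the libraries of the 2 groups, and from hSCNPC-P10 to hSCNPC-P40 every group mean was between 0.438 and 0.662 CPM. In motor neurons RARG was at 0.166, 0.338 and 0.145 CPM on day 6 and at 3.85, 3.56 and 3.39 CPM on day 42 (log2 fold change 3.97 ± 0.316, edgeR adjusted p = 4.47e-16). The day 42 level was still under that of any group from hESC to NeuDet-D6.

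RARA (chr17:40309180-40357643, plus strand; ENSG00000131759.18), the receptor found in most tissues, stayed between group means of 13.2 and 23.2 CPM from hESC to NeuDet-D6. It was at 16.0, 17.4 and 20.5 CPM in NeuDet-D6 and at 40.2, 42.5 and 38.1 CPM in hSCNPC-P5, a rise of 1.17 ± 0.0908 on the log2 scale (edgeR adjusted p = 1.32e-16). Passage 10 held 56.4, 49.7 and 56.2 CPM. The highest level was in hMN-D6, at 84.6, 91.2 and 86.9 CPM, above every library of hSCNPC-P10 (log2 fold change 0.69 ± 0.0540, edgeR adjusted p = 1.61e-16). By hMN-D42 it was at 37.1, 38.1 and 32.6 CPM, a fall of 1.29 ± 0.0557 on the log2 scale (edgeR adjusted p = 1.75e-26). Of its 4743 exon bases, 21.4% also lie in genes of the opposite strand, among them RARA-AS1, and the counting is not stated to use strand; RARA-AS1 itself reached at most a group mean of 2.74 CPM.

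RARB (chr3:24687887-25597932, plus strand; ENSG00000077092.19), whose promoter holds the first element printed above, was near the limit of detection through NeuDet. Its group means ran from 0.226 to 0.917 CPM from hESC to NeuDet-D6, and NeuDet-D6 held 0.195, 0.235 and 0.273 CPM. The hSCNPC-P5 libraries held 8.22, 9.37 and 8.80 CPM, a log2 fold change of 5.22 ± 0.283 (adjusted p = 6.81e-23, edgeR). At passage 10 it was lower, at 3.97, 3.06 and 3.11 CPM, and at passage 20 it was back at 6.72, 6.02 and 8.03 CPM (log2 fold change from passage 10 1.02 ± 0.213, edgeR adjusted p = 0.000156). Motor neurons held group means between 2.87 CPM at day 42 and 6.75 CPM at day 18. RARB was lower at day 42 than at day 6 by a log2 fold change of -0.61 ± 0.157 (adjusted p = 0.000617, edgeR).

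**Figure D1:**
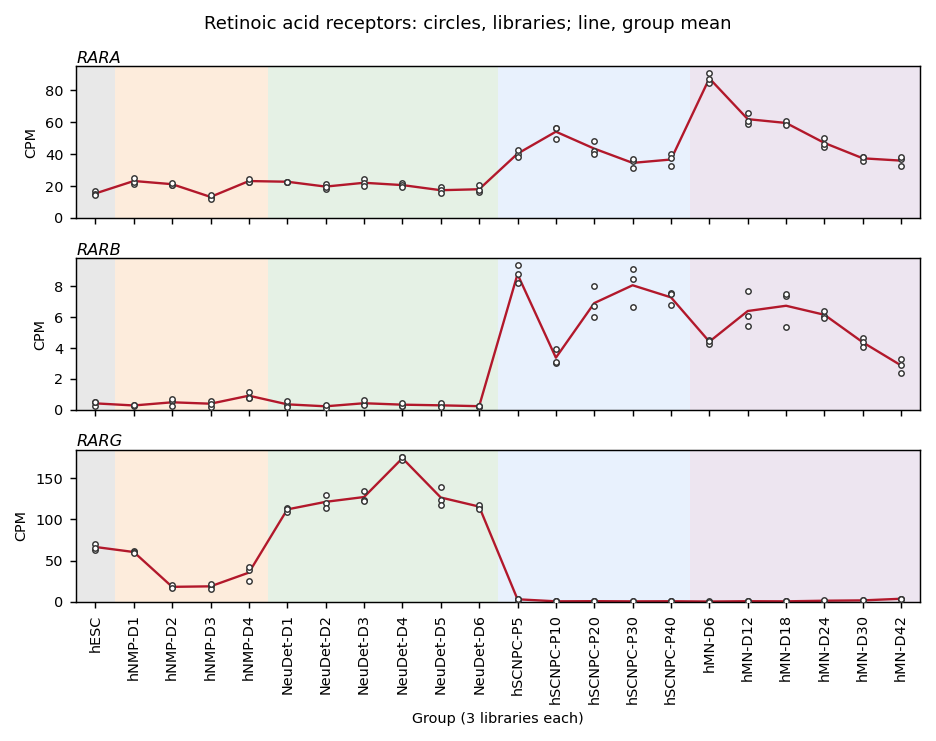
Counts-per-million (CPM, TMM scaled, linear axes that differ between panels) of RARA, RARB and RARG in the 22 groups from hESC to hMN-D42. Circles are the 3 libraries of a group and the line joins group means; RARG averages 116 CPM in NeuDet-D6 and 2.96 CPM in hSCNPC-P5, while RARA and RARB rise.

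Per kilobase of exon, the receptors' make-up can be given as shares of their summed level. RARG made up 79.9 ± 0.920% of it in hESC (SD, n = 3), 57.5 ± 7.62% in hNMP-D4 and 88.6 ± 0.593% in NeuDet-D4. In hNMP-D2, where RARG was at its lowest before the passages, it made up 43.8 ± 2.85% and RARA 55.5 ± 2.53%. In hSCNPC-P5 its share was 5.78 ± 0.597%, with 84.9 ± 1.03% RARA and 9.31 ± 0.454% RARB. RARA reached 96.2 ± 0.324% in hSCNPC-P10 and 97.3 ± 0.0595% in hMN-D6. RARG was back at 8.19 ± 0.391% in hMN-D42. The summed level itself was 38.4 ± 0.485 CPM per kb in NeuDet-D4, 26.4 ± 0.414 CPM per kb in NeuDet-D6 and 11.9 ± 0.854 CPM per kb in hSCNPC-P10, so that hSCNPC-P10 held less receptor RNA in all than either NeuDet group as well as a different main receptor.

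**Figure D2:**
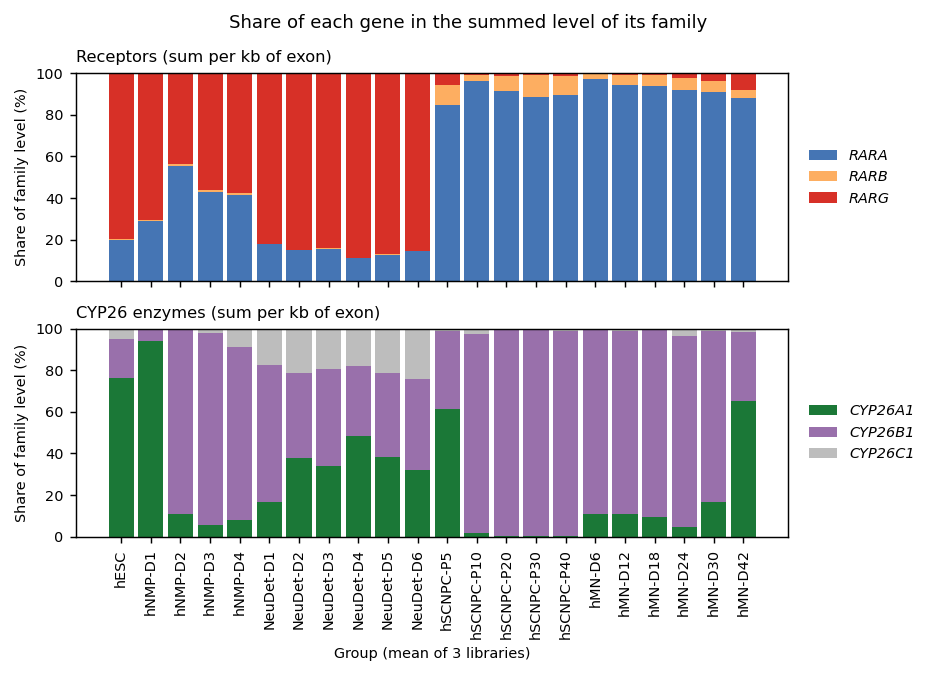
Share (%) of each gene in the summed level per kilobase of exon of the 3 receptors (upper) and the 3 CYP26 enzymes (lower), mean of 3 libraries in each of the 22 groups. RARG holds most of the receptor sum in every NeuDet group and RARA in every hSCNPC and hMN group; CYP26A1 holds 61.3% of the CYP26 sum in hSCNPC-P5 and 65.0% in hMN-D42.

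Of the synthesis enzymes, ALDH1A2 (chr15:57953424-58497866, minus strand), the main retinaldehyde dehydrogenase of the embryonic trunk, was highest in motor neurons and went up with time there. It was at or under a mean of 1.73 CPM in all 16 groups before them. NeuDet-D6 held 0.975, 0.966 and 1.09 CPM, hSCNPC-P10 held 1.94, 1.53 and 1.71 CPM, and hSCNPC-P40 held 0.220, 0.202 and 0.347 CPM. In hMN-D6 it was at 2.82, 3.93 and 3.14 CPM, above hSCNPC-P10 by 0.92 ± 0.158 on the log2 scale (edgeR adjusted p = 8.66e-07). The group means then were 5.78 CPM at day 12, 5.89 at day 18, 7.81 at day 24 and 12.4 at day 30, and the hMN-D42 libraries held 14.4, 15.8 and 15.9 CPM. Day 42 was above day 6 by a log2 fold change of 2.21 ± 0.114 (adjusted p = 2.28e-23, edgeR), and days 12 and 18 were the neighbours in that order whose libraries overlapped. Of its exon bases 6.9% lie in the opposite-strand genes AQP9 and ALDH1A2-AS1, which reached at most group means of 0.176 and 0.0414 CPM.

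Markers of other cell types were looked at beside this rise. Of 7 markers of presomitic and somitic mesoderm, 1 reached 1 CPM in each hMN group, and their sum lay between 2.00 and 4.33 CPM over all 18 hMN libraries. Of 5 markers of fibroblasts and meninges, 2 reached 1 CPM in hMN-D6 (sum 44.7 to 51.1 CPM) and 4 in hMN-D42 (sum 765 to 876 CPM). The hMN-D42 sum was carried by COL1A1 at 674 ± 55.2 CPM (SD, n = 3) and COL3A1 at 145 ± 2.42 CPM. LUM and DCN averaged 3.08 and 3.54 CPM there, and FOXC1 averaged under 1 CPM. The list also summed to 248 to 279 CPM in hESC, where LUM and DCN had no counts. Its sum thus does not mark such cells alone. The 5 neural crest markers summed to 6.69 to 9.79 CPM in hMN-D6 and 144 to 152 CPM in hMN-D42, the 5 astrocyte and oligodendrocyte precursor markers to 1.22 to 2.05 CPM and 25.7 to 29.0 CPM, and the 5 floor plate markers to 21.1 to 24.7 CPM and 54.9 to 58.2 CPM. The part of such cells in the ALDH1A2 level, and in those of RARG and CYP26A1 at day 42, was not tested. Within day 30 the sum of the fibroblast and meninges list was 101 CPM in replicate 1, 115 CPM in replicate 2 and 339.8 CPM in replicate 3, and ALDH1A2 was 12.1, 12.04 and 13.0 CPM in the same libraries. Motor neurons of the lateral motor column are the ones known for ALDH1A2. Of the 2 genes listed here for that column, FOXP1 was at 8.98 ± 0.553 CPM (SD, n = 3) in hMN-D42 against 7.40 ± 1.12 CPM in hMN-D6. LHX1 was at or under a mean of 0.116 CPM in every hMN group. These 2 genes do not cover the column as a whole, so their levels do not show whether its cells were present. FOXP1 was higher before the motor neurons, at 12.8 to 15.1 CPM in hESC and 24.6 to 29.3 CPM in hNMP-D4, so its level does not mark that column alone.

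ALDH1A1 (chr9:72900671-73080442, minus strand), the form of adult tissues and dopaminergic neurons, was low everywhere. The highest libraries were those of hESC, at 1.54, 1.70 and 2.06 CPM, and hNMP-D4 held 0.210, 0.265 and 0.294 CPM (log2 fold change -2.74 ± 0.407, edgeR adjusted p = 2e-07). NeuDet-D1 had 1 count in its 3 libraries against 16 in hNMP-D4, a ratio of 26.5 (95% exact counting interval 4.11 to 1110). None of the 15 libraries from NeuDet-D2 to NeuDet-D6 had a count, which allows at most 0.0285 to 0.0399 CPM per group at a floor of 3 counts over the group. With 40 counts in hSCNPC-P5, ALDH1A1 was at least 24.98-fold higher there than in NeuDet-D6 (edgeR adjusted p = 4.92e-10). It kept group means of 0.693 to 1.11 CPM over the 5 passages and was at or under 0.173 CPM in motor neurons. In the NeuDet groups RARG and CRABP2 were at their highest. ALDH1A1 was thus all but undetected there, and ALDH1A2 was at or under a mean of 1.011 CPM. ALDH1A3, a further synthesis enzyme, is not a member of the list described here. It was detected in NeuDet-D1, and its level is given below with the other metabolism genes. The levels of ALDH1A1 and ALDH1A2 alone therefore do not show that RNA of synthesis enzymes was nearly absent in NeuDet.

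**Figure D3:**
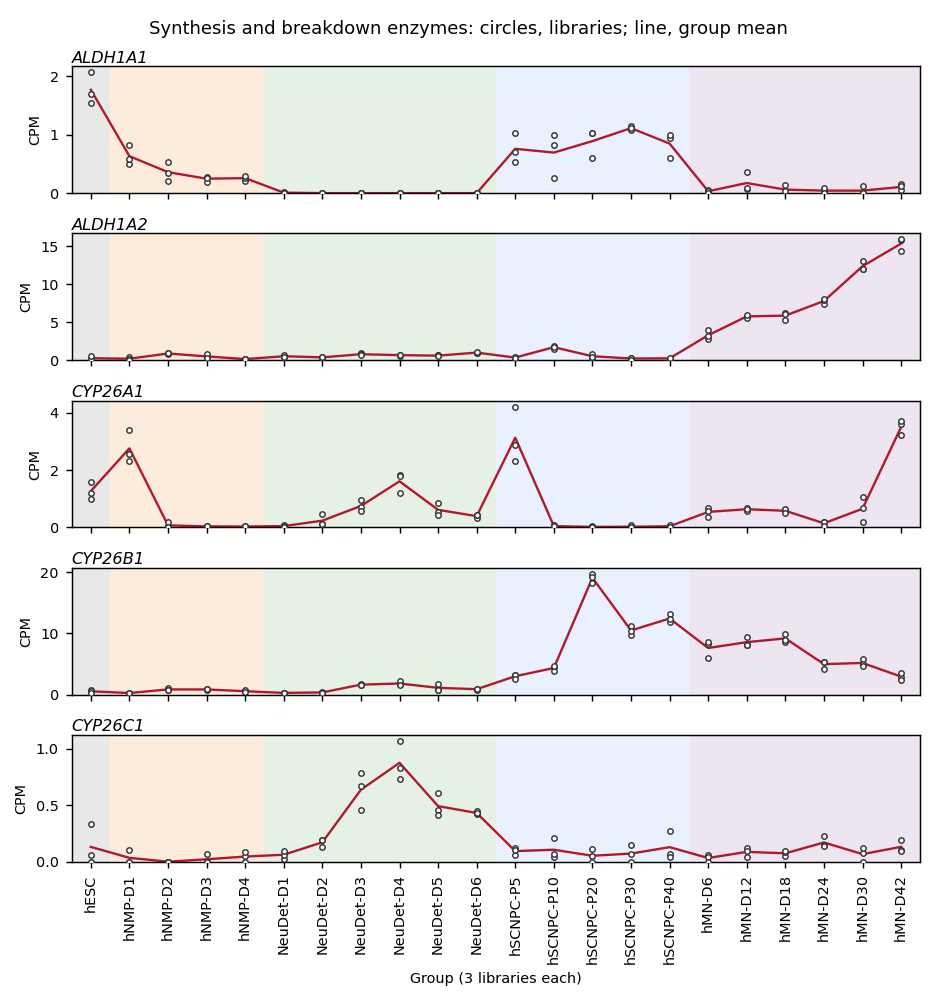
Counts-per-million (CPM, TMM scaled, linear axes that differ between panels) of ALDH1A1, ALDH1A2, CYP26A1, CYP26B1 and CYP26C1 in the 22 groups; circles are the 3 libraries, lines join group means. ALDH1A2 climbs from 3.29 to 15.4 CPM in motor neurons, CYP26A1 has separate peaks at hNMP-D1, NeuDet-D4, hSCNPC-P5 and hMN-D42, and CYP26B1 peaks at 19.1 CPM in hSCNPC-P20.

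The breakdown enzymes rose together from NeuDet-D1 to NeuDet-D4 and were lower again in NeuDet-D6. CYP26A1 and CYP26B1 moved in opposite directions from passage 5 to passage 40 and from hMN-D6 to hMN-D42. They did not do so at every sampling between. Both went down from hMN-D18 to hMN-D24, CYP26A1 from a mean of 0.580 to 0.145 CPM and CYP26B1 from 9.2 to 4.98 CPM. CYP26A1 (chr10:93073475-93077885, plus strand), the inducible form that carries the other element printed above, was at 1.21, 1.59 and 1.00 CPM in hESC and at 2.57, 3.39 and 2.32 CPM in hNMP-D1. In hNMP-D2 the libraries held 0.0415, 0.175 and 0 CPM, a fall of 5.22 ± 0.520 on the log2 scale (edgeR adjusted p = 1.62e-12). It fell together with RARG over the same day. hNMP-D4 had 2 counts in all against 68 in hESC, a ratio of 39.6 (95% exact counting interval 10.5 to 333). During NeuDet it was at 0.0778, 0.0612 and 0 CPM on the first day, at 1.197, 1.84 and 1.79 CPM on NeuDet-D4 and at 0.334, 0.418 and 0.429 CPM on NeuDet-D6. hSCNPC-P5 held 2.31, 2.87 and 4.22 CPM, above NeuDet-D6 by 2.99 ± 0.345 on the log2 scale (edgeR adjusted p = 7.35e-11). From passage 10 on it all but vanished. The counts were 169 in hSCNPC-P5 and 2 in hSCNPC-P40, a ratio of 89.0 (95% exact counting interval 24.3 to 741). Motor neurons held 0.664, 0.380 and 0.579 CPM at day 6 and 3.59, 3.21 and 3.70 CPM at day 42 (log2 fold change 2.71 ± 0.297, edgeR adjusted p = 1.77e-11). The day 42 libraries stood above every earlier hMN library. At day 30, where the fibroblast and meninges list differed between libraries, CYP26A1 was at 0.196, 0.694 and 1.07 CPM in replicates 1, 2 and 3 and RARG at 1.57, 0.979 and 2.26 CPM.

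RARB and CYP26A1 both rose into hSCNPC-P5, but they parted at later passages. RARB had group means of 3.38 to 8.08 CPM from hSCNPC-P10 to hSCNPC-P40, and CYP26A1 had 0.0181 to 0.0461 CPM. Of the exon bases of CYP26A1, 25.3% are shared with a gene of the same strand, ENSG00000285846. That gene runs through CYP26C1 as well (18.9% of its exon bases) and had 0 counts over all libraries. How the counting treated reads in shared exons is not stated in the sources used here. Levels per kilobase use all exon bases, so they would understate CYP26A1 and CYP26C1 if such reads were left out.

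CYP26B1 (chr2:72129238-72147862, minus strand), which clears retinoic acid in hindbrain and limb, was the main form of the progenitors from passage 10 on. Its group means were between 0.248 and 1.81 CPM from hESC to NeuDet-D6. It was at 3.19, 3.22 and 2.58 CPM in hSCNPC-P5 (log2 fold change from NeuDet-D6 1.77 ± 0.219, edgeR adjusted p = 5.69e-10) and at 4.53, 3.79 and 4.71 CPM in hSCNPC-P10. Passage 20 held 19.8, 19.2 and 18.3 CPM, a rise over passage 10 of 2.13 ± 0.171 on the log2 scale (edgeR adjusted p = 2.55e-15). At passage 40 it was at 13.2, 11.8 and 12.3 CPM, above passage 5 by 2.06 ± 0.181 (log2; edgeR adjusted p = 2.41e-14). Between passages 5 and 40, CYP26A1 thus fell while CYP26B1 rose. Marker lists changed between these passages too. The 5 neural crest markers summed to 174 to 184 CPM in hSCNPC-P5 and 479 to 491 CPM in hSCNPC-P40. The 5 neural progenitor markers summed to 3901 to 3995 CPM and 2532 to 2682 CPM. The part of such changes in the CYP26 levels was not tested. Per kilobase of exon, CYP26B1 went from 37.5 ± 9.39% (SD, n = 3) of the CYP26 sum in hSCNPC-P5 to 98.4 ± 1.26% in hSCNPC-P40. From hMN-D6 to hMN-D42 the turn was the other way. CYP26B1 was at 6.03, 8.28 and 8.54 CPM in hMN-D6 and at 2.84, 3.56 and 2.41 CPM in hMN-D42 (log2 fold change -1.40 ± 0.145, edgeR adjusted p = 3.54e-12), and its share went from 88.9 ± 4.37% to 33.3 ± 6.12% of the CYP26 sum.

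CYP26C1 (chr10:93060798-93069540, plus strand), which lies beside CYP26A1, never reached a group mean of 1 CPM. The highest group was NeuDet-D4, at 0.730, 0.825 and 1.07 CPM, the same day as the NeuDet peak of CYP26A1. NeuDet-D6 held 0.446, 0.418 and 0.429 CPM, above NeuDet-D1 by 2.76 ± 0.608 on the log2 scale (edgeR adjusted p = 0.000121). It was at 0.118, 0.0575 and 0.105 CPM in hSCNPC-P5 (log2 fold change -2.14 ± 0.667, edgeR adjusted p = 0.00495), and no group after NeuDet-D6 exceeded a mean of 0.170 CPM. In hNMP-D2 it had no count in any library, which allows at most 0.0511 CPM.

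The binding proteins reached the highest levels of the 10 genes per kilobase of exon, with 1021 ± 64.1 CPM per kb for CRABP2 in NeuDet-D2 (SD, n = 3) and 3449 ± 409 CPM per kb for CRABP1 in hMN-D6, against 34.0 ± 0.357 CPM per kb for RARG in NeuDet-D4. CRABP2 (chr1:156699606-156705816, minus strand), which hands retinoic acid to the receptors in the nucleus, rose early: hESC held 68.5, 59.8 and 58.3 CPM, hNMP-D4 held 474, 469 and 379 CPM, and NeuDet-D2 held 1131, 1026 and 1157 CPM. The change from hESC to hNMP-D4 was 2.82 ± 0.0801 on the log2 scale (edgeR adjusted p = 1.02e-34), and that from hNMP-D4 to NeuDet-D1 was 1.08 ± 0.0731 (adjusted p = 1.27e-18, edgeR). It was at 479, 466 and 445 CPM in hSCNPC-P5, and the 5 passages had means of 365 to 533 CPM. Motor neurons held 467, 414 and 392 CPM at day 6, which overlapped with hSCNPC-P10, and 110.0, 108 and 108 CPM at day 42, a fall of 1.96 ± 0.0596 on the log2 scale (edgeR adjusted p = 1.15e-21).

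CRABP1 (chr15:78340353-78348225, plus strand), which holds retinoic acid in the cytoplasm and is a marker of young neurons, moved late. It went down in the hNMP groups, from 56.6, 43.9 and 43.4 CPM in hESC to 19.0, 17.1 and 13.1 CPM in hNMP-D4 (log2 fold change -1.56 ± 0.115, edgeR adjusted p = 1.52e-15), while CRABP2 rose over the same days. NeuDet-D1 held 15.6, 19.5 and 18.04 CPM and NeuDet-D6 held 232, 273 and 212 CPM, a rise of 3.76 ± 0.109 on the log2 scale (edgeR adjusted p = 5.57e-30). The progenitors had means between 344 CPM at passage 5 and 699 CPM at passage 10. The hMN-D6 libraries held 3753, 3149 and 3019 CPM, the highest of the 22 groups. They lay above hSCNPC-P10 by 2.24 ± 0.0852 (log2; edgeR adjusted p = 2.33e-13). The level then went down at each sampling, to 1201 CPM on average at day 12, 534 at day 18, 360 at day 24 and 256 at day 30, and to 178, 174 and 168 CPM at day 42. Libraries of neighbouring days did not overlap, and from day 6 to day 42 CRABP1 fell by 4.25 ± 0.0940 on the log2 scale (edgeR adjusted p = 1.88e-16). Of its exon bases 45.9% also lie in ENSG00000279694 on the opposite strand, which was also highest in hMN-D6 (18.4, 18.7 and 18.4 CPM, and 0.709, 0.594 and 1.05 CPM in hMN-D42), and without a stated strand setting reads of the 2 cannot be told apart.

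**Figure D4:**
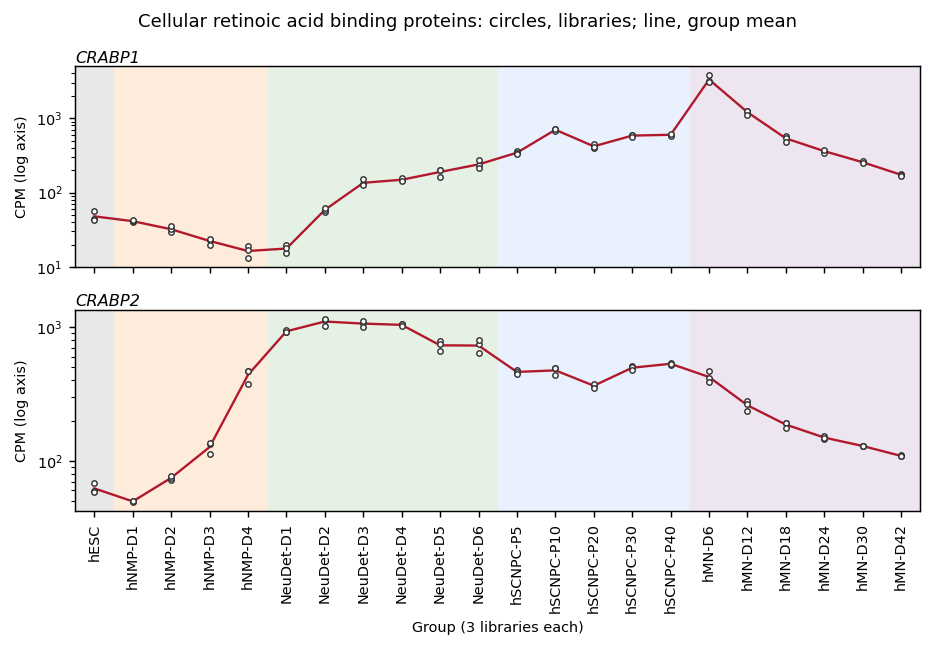
Counts-per-million (CPM, TMM scaled, log axis) of CRABP1 and CRABP2 in the 22 groups; circles are the 3 libraries and the line joins group means. CRABP2 is highest in NeuDet-D2 (mean 1105 CPM) and CRABP1 in hMN-D6 (mean 3307 CPM), and both go down over the motor neuron days.

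Neighbouring groups in the order of levels were told apart to a different degree from gene to gene. Of the 21 pairs of neighbouring groups in the order of their means, 13 did not overlap for CRABP1 and 13 for CRABP2. The number was 9 for RARG, 7 for ALDH1A2, 6 for CYP26B1, 4 for RARB and 3 for RARA. Only 2 such pairs were found for CYP26A1 and for ALDH1A1, and 1 for CYP26C1. Libraries of most neighbouring pairs thus overlapped for RARA, RARB, CYP26B1, ALDH1A2, RARG and these 3 genes. Neighbours in such an order are the closest groups by construction, and overlap of 3 libraries is not a test of difference.

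Counted over the comparisons, the members changed at nearly every step, as did a large part of all genes. In hNMP-D4 against hESC, 3 of 10 members were higher (RARA, RARB, CRABP2) and 4 lower (RARG, CYP26A1, ALDH1A1, CRABP1), where 26.4% of the 21597 genes tested were called higher and 27.8% lower. The call for RARB, at 0.417 and 0.917 CPM, is lost without hESC replicate 1 (adjusted p = 0.0622) and without hNMP-D4 replicate 2 (adjusted p = 0.0548, edgeR). From hNMP-D1 to hNMP-D2, 3 were higher (CYP26B1, ALDH1A2, CRABP2) and 3 lower (RARG, CYP26A1, CRABP1), with 24.3% of all genes higher and 25.9% lower; without hNMP-D2 replicate 2, RARB is called as well (adjusted p = 0.0436, edgeR). From hNMP-D4 to NeuDet-D1, 3 were higher (RARG, ALDH1A2, CRABP2) and 3 lower (RARB, CYP26B1, ALDH1A1), against 27.0% and 28.8% of all genes. The CYP26B1 call there, on levels of 0.548 and 0.273 CPM, is lost without hNMP-D4 replicate 1 (adjusted p = 0.0547), hNMP-D4 replicate 2 (0.127) or NeuDet-D1 replicate 3 (0.0584, edgeR), and with these groups fitted alone (0.0517).

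From NeuDet-D1 to NeuDet-D6, 5 members rose (the 3 CYP26 genes, ALDH1A2 and CRABP1) and 2 fell (RARA and CRABP2), against 27.7% higher and 27.2% lower among all genes. Without NeuDet-D1 replicate 1 the ALDH1A2 call is lost (adjusted p = 0.0541, edgeR). From NeuDet-D6 to hSCNPC-P5 all 10 members were called, 6 higher (RARA, RARB, CYP26A1, CYP26B1, ALDH1A1, CRABP1) and 4 lower (RARG, CYP26C1, ALDH1A2, CRABP2), where 28.3% of all genes were higher and 31.2% lower. That is the largest number of members called at a step, but in both motor neuron comparisons, where only 8 members were tested, all of them were called. Between passages 10 and 20, 2 were higher (RARB, CYP26B1) and 4 lower (RARA, ALDH1A2, CRABP1, CRABP2), against 9.55% and 15.6% of all genes. Between passages 5 and 40, 3 were higher (CYP26B1, CRABP1, CRABP2) and 2 lower (RARG, CYP26A1), against 22.1% and 24.4%. The CRABP2 change there was 0.20 ± 0.0727 (log2), and its call is lost without hSCNPC-P5 replicate 3 (adjusted p = 0.0844) or hSCNPC-P40 replicate 1 (adjusted p = 0.0575, edgeR). RARB, at 8.80 and 7.29 CPM, is called lower with these groups fitted alone (adjusted p = 0.0498, edgeR).

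For motor neurons, 8 members passed the filter on low counts, which left out CYP26C1 and ALDH1A1. From hSCNPC-P10 to hMN-D6, 6 were higher (RARA, RARB, CYP26A1, CYP26B1, ALDH1A2, CRABP1) and 2 lower (RARG, CRABP2), against 40.1% higher and 35.5% lower among the 21175 genes tested. The hSCNPC and hMN libraries were deposited in separate tables, so that the table and the group cannot be told apart there. The median of all genes was 0.12 (log2) in that comparison and 0.25 with RLE scaling, and both lower calls are lost with RLE scaling (adjusted p = 0.553 for CRABP2 and 0.0641 for RARG, edgeR). The RARB call, at 0.37 ± 0.157 (log2), is lost without hSCNPC-P10 replicate 2 (adjusted p = 0.0969), hSCNPC-P10 replicate 3 (0.111), hMN-D6 replicate 2 (0.0693) or hMN-D6 replicate 3 (0.0597, edgeR), with TMM within the fit (0.0515), with all 66 libraries in 1 fit (0.0818) and with DESeq2 (0.0861). Likewise CRABP2 is lost without hSCNPC-P10 replicate 1 (adjusted p = 0.0518) or hMN-D6 replicate 3 (0.0626, edgeR). RARG is lost without hSCNPC-P10 replicate 1 (adjusted p = 0.0720), hSCNPC-P10 replicate 3 (0.0858), hMN-D6 replicate 1 (0.0934) or hMN-D6 replicate 3 (0.130, edgeR), with no filter on low counts (0.0621) and with all 66 libraries in 1 fit (0.0781). For CYP26A1 the counts were 33 and 3, a ratio of 10.1 (95% exact counting interval 3.17 to 51.6). Some directions depend on the passage taken as the start. RARB averaged 4.42 CPM in hMN-D6 but 6.92 to 8.80 CPM at passages 5, 20, 30 and 40. CYP26B1 averaged 7.61 CPM in hMN-D6 but 10.5 to 19.1 CPM at passages 20, 30 and 40. CYP26A1 averaged 0.541 CPM in hMN-D6 and 3.13 CPM at passage 5, and CRABP2 424 CPM in hMN-D6 and 365 CPM at passage 20. RARA, RARG, ALDH1A2 and CRABP1 kept their direction against the mean of every passage. From hMN-D6 to hMN-D42, within 1 table, 3 were higher (RARG, CYP26A1, ALDH1A2) and 5 lower (RARA, RARB, CYP26B1, CRABP1, CRABP2), against 34.1% and 31.9% of all genes, and no left-out library changed a call.

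**Figure D5:**
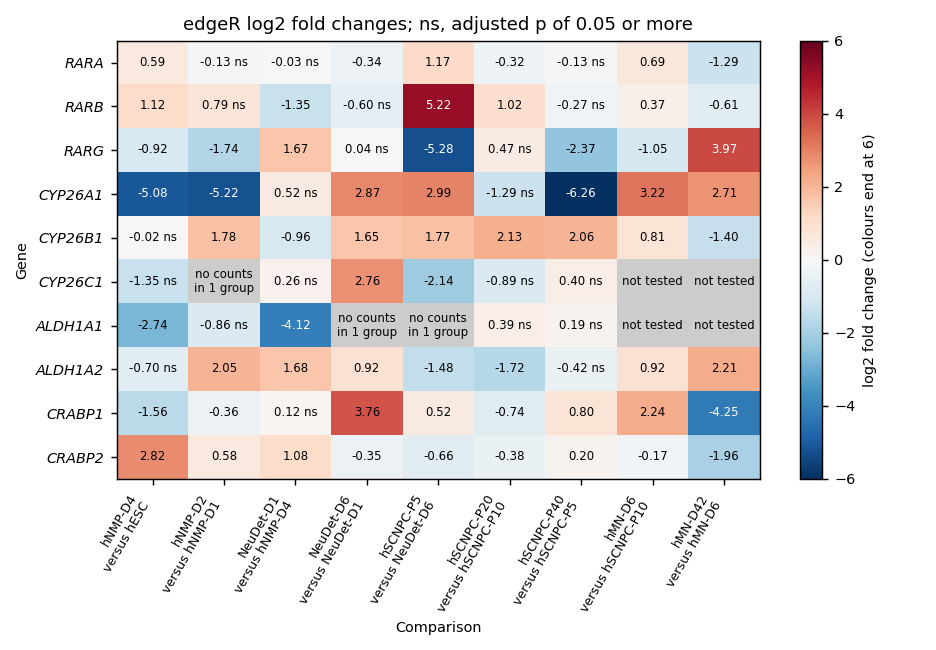
Log2 fold change of each of the 10 genes (rows) in the 9 comparisons (columns), from edgeR; colours end at 6 in either direction, ns marks an adjusted p of 0.05 or more, and grey cells were not tested or have a group without counts. The column from NeuDet-D6 to hSCNPC-P5 holds the opposite changes of RARG (-5.28) and RARB (5.22).

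The rest of the pathway was read from lists of 20 other retinoid metabolism and transport genes, 9 RXR and cofactor genes and 23 known retinoic acid targets; DHRS3, STRA6 and NRIP1 each stand in 2 of them. The counts of these lists are to be read against the shares of all genes called in the same comparison, as given above for the members. Among metabolism and transport genes, 15 passed the filter in the fit from hESC to hSCNPC. From hNMP-D4 to NeuDet-D1, 4 of 15 were higher and 9 lower, with a median log2 fold change of -0.60 against -0.02 for all genes tested. STRA6, the membrane receptor that takes up retinol, rose from 22.9 ± 14.8 to 212 ± 6.83 CPM (SD, n = 3; adjusted p = 9.13e-16, edgeR). DHRS3, which turns retinaldehyde back into retinol, fell from 24.4 ± 4.54 to 6.17 ± 0.471 CPM, and ALDH1A3, a further retinoic acid synthesis enzyme, fell from 35.0 ± 10.8 to 4.88 ± 0.531 CPM.

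From NeuDet-D6 to hSCNPC-P5, 0 of 15 metabolism and transport genes were higher and 10 lower by edgeR, with a median log2 fold change of -0.83 against -0.04. LRAT, which stores retinol as esters, fell from 25.9 ± 2.32 to 2.09 ± 0.406 CPM, and CYP1B1, which can also oxidise retinoids, fell from 16.4 ± 0.738 to 4.08 ± 0.267 CPM. Between passages 5 and 40 LRAT rose to 65.8 ± 2.94 CPM (log2 fold change 4.96 ± 0.163, edgeR adjusted p = 1.07e-27) and DHRS3 rose from 5.92 ± 0.436 to 23.5 ± 0.945 CPM, with 3 of 15 higher and 5 lower in all. From hSCNPC-P10 to hMN-D6, 7 of 16 were higher and 5 lower, near the shares of all genes (40.1% and 35.5%). RDH11, of the retinol dehydrogenase family, rose from 59.1 ± 1.09 to 118 ± 11.7 CPM, and DHRS3 fell from 14.8 ± 1.22 to 0.155 ± 0.0511 CPM (log2 fold change -6.49 ± 0.263, edgeR adjusted p = 3.12e-28). From hMN-D6 to hMN-D42, 9 of 16 were higher and 5 lower, and CYP1B1 rose from 1.59 ± 0.385 to 19.4 ± 0.282 CPM.

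In hNMP-D4 against hESC 7 of 15 were higher and 3 lower, and CYP1B1 rose from 5.50 ± 0.160 to 49.6 ± 2.29 CPM. From hNMP-D1 to hNMP-D2 5 were higher and 2 lower, from NeuDet-D1 to NeuDet-D6 7 and 3, and from passage 10 to passage 20 3 and 3.

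Most of the tested RXR partners and cofactors were lower at the end of NeuDet than at its start. From NeuDet-D1 to NeuDet-D6, 0 of 8 tested were higher and 7 lower by edgeR, with a median log2 fold change of -0.57 against 0.01, and NCOA1, a coactivator, fell from 41.4 ± 0.449 to 21.7 ± 0.738 CPM. From NeuDet-D6 to hSCNPC-P5 the numbers were the other way, with 6 of 8 higher and 0 lower by edgeR and a median of 0.64 against -0.04. NCOA1 rose to 50.9 ± 0.925 CPM. RXRG, an RXR form of differentiated cells, rose from 1.65 ± 0.523 CPM in hSCNPC-P10 to 43.2 ± 1.63 CPM in hMN-D6 (log2 fold change 4.65 ± 0.102, edgeR adjusted p = 7.62e-40), in a list with 4 of 8 higher and 2 lower. At hMN-D42 it was at 32.9 ± 1.96 CPM, with 3 higher and 4 lower. In the other comparisons the numbers higher and lower were 5 and 0 (hNMP-D4 against hESC), 1 and 5 (hNMP-D2 against hNMP-D1), 3 and 3 (NeuDet-D1 against hNMP-D4), 0 and 4 (passage 20 against 10) and 0 and 5 (passage 40 against 5).

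The known target genes, many of them HOX genes that other signals set as well, were mostly higher in hNMP-D4 and NeuDet-D1. In hNMP-D4 against hESC, 13 of 21 tested were higher and 3 lower. Their median log2 fold change was 3.31, or 1.78 with genes that had no count in a group set at the floor of 3 counts, against 0.00 for all genes. MEIS2 rose from 0.394 ± 0.0752 to 50.7 ± 16.1 CPM (SD, n = 3), and RARRES2 fell from 76.9 ± 18.2 to 12.7 ± 3.37 CPM. From hNMP-D4 to NeuDet-D1, 12 were higher and 8 lower, with a median of 2.24 against -0.02. HOXB4 rose from 0.158 ± 0.157 to 31.6 ± 0.825 CPM and HOXB2 from 1.07 ± 1.05 to 78.7 ± 3.01 CPM, while DHRS3 fell, as given above. From NeuDet-D1 to NeuDet-D6, 9 were higher and 7 lower, and HOXB4 reached 172 ± 27.7 CPM.

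In hSCNPC-P5, where RARB and CYP26A1 rose, 7 of the 21 targets were higher than in NeuDet-D6 and 8 lower, with a median of 0.00 against -0.04. MEIS1 rose from 5.82 ± 0.789 to 56.7 ± 1.53 CPM and RARRES2 from 0.851 ± 0.231 to 25.7 ± 0.461 CPM, while HOXB4 fell to 16.1 ± 0.990 CPM and HOXA3 from 66.7 ± 2.16 to 16.8 ± 1.13 CPM. At later passages HOXA3 rose (16.8 ± 1.13 CPM at passage 5 and 115 ± 1.99 CPM at passage 40) and HOXB1 and HOXD4 fell (HOXD4 from 34.3 ± 3.72 to 0.562 ± 0.143 CPM), with 5 higher and 9 lower between these passages and 7 and 7 between passages 10 and 20. From hMN-D6 to hMN-D42, 2 of 18 were higher and 14 lower, with a median of -1.24 against 0.01. RET, the GDNF receptor, rose from 21.6 ± 1.36 to 61.4 ± 0.890 CPM, and HOXB5 fell from 56.8 ± 1.81 to 9.28 ± 0.104 CPM. Among all genes, 34.1% were higher and 31.9% lower in that comparison. ALDH1A2 and CYP26A1 were higher at day 42 as well, and a link between them and the target list was not tested. From hSCNPC-P10 to hMN-D6 10 of 18 were higher and 7 lower, where 40.1% of all genes were higher and 35.5% lower. From hNMP-D1 to hNMP-D2 3 of 21 were higher and 5 lower, where the shares of all genes were 24.3% and 25.9%.

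The genes whose group means followed each member most closely were found by Pearson correlation of log2(CPM + 1) over the 22 groups, among 14227 named genes that reached a mean of 5 CPM; these groups share libraries and scaling, and the values are a description. RARG was most like ITGB5 (r = 0.979), ELK3 (0.975) and TMC6 (0.971). The nearest to RARB were DNAI1 (0.980), ERBB4 (0.973) and NR2F2-AS1 (0.968). RARA was closest to GARIN1A (0.954), C1orf50 (0.952) and TADA2B (0.950), and CYP26B1 to CSNK1A1P1 (0.954), EPHA3 (0.938) and ATP6V0D1-DT (0.935). ALDH1A2 was closest to TNFRSF9 (0.973), LINC02762 (0.970) and TMEM132E-DT (0.969). CRABP1 was followed most closely by SLC39A6 (0.952), TBCK (0.938) and NTN3 (0.934), and CRABP2 by PRTG (0.965), CANT1 (0.941) and SALL1 (0.930). CYP26A1, CYP26C1 and ALDH1A1 did not reach 5 CPM in any group and were not searched.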

How the data were processed

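RNA of 66 libraries of H9 cells (48 from hESC to hSCNPC, 18 hMN) was sequenced by the authors. What the authors deposited is a pair of tables of unnormalized counts of reads by gene. By the study's methods, reads were trimmed with fastp, aligned to hg38 with HISAT2 2.1.0 and counted with featureCounts 1.5.3 on a GENCODE annotation. The release and the strand setting are not given in the sources used here. Of 60603 identifiers, 60261 (99.44%) were paired with a symbol through the GENCODE annotation at hand, whose release may differ from that of the authors. Among 66 pairs of libraries of a group, 0 were identical and their counts differed more than Poisson sampling gives (chi-squared over its degrees of freedom from 1.89 to 25.33, on genes of 20 counts or more).

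Counts were scaled with TMM over all libraries and tested with edgeR 4.0.16 in R 4.3.3 (robust quasi-likelihood F test, Benjamini-Hochberg over all genes kept by filterByExpr, threshold 0.05). All hESC, hNMP, NeuDet and hSCNPC libraries (48) entered a single fit (21597 genes), and the 18 hMN libraries together with hSCNPC-P10 (3 libraries), entered another (21175 genes). No library is labelled as day 0 of the motor neuron course, and hSCNPC-P10 was taken for it. The SE is the size of the log2 fold change over the square root of F. The scripts were tested on simulated data with known changes. Depth per library was 14142238 to 40204753 counts; intervals and floors (3 counts over a group) cover counting error only. The authors' libraries carry the same replicate numbers in each group; the check of whether these pair samples is given with the alternatives, which were RLE scaling, TMM within a fit, other filters on low counts, DESeq2 1.42.0, other sets of fitted libraries, the replicate number as a block, and each library left out. The members, the lists and the markers were chosen with earlier results of these data known. List genes named are up to 3 per direction, comparison and list with the largest change among those called with a mean of at least 5 CPM in a group; values of some list genes are not reported here. Marker genes, antisense genes and further values of named list genes were named after their values were seen. Motifs were searched in a RefSeq promoter table. Python 3.11.15 was used for tables and plots, with pandas 2.3.3 and matplotlib 3.10.9.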

Additional observations from a re-analysis of the deposited data

How the results depend on the processing

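Over the 9 comparisons, 1139 of the members' refitted log2 fold changes kept their direction and their side of the threshold, 26 lost it, 2 gained it and 13 changed sign; all 13 belong to uncalled values and to fits without 1 library. In hNMP-D4 against hESC these fits gave -0.33 to 0.23 for CYP26B1 and -2.11 to 0.65 for CYP26C1. In NeuDet-D1 against hNMP-D4 they gave -0.22 to 1.02 for CYP26C1, -0.04 to 1.00 for CYP26A1, -0.03 to 0.24 for CRABP1 and -0.06 to 0.02 for RARA. Between passages 10 and 20 they gave -0.0 to 0.69 for ALDH1A1 and -1.76 to 0.04 for CYP26C1, and between passages 5 and 40 -0.02 to 0.48 for ALDH1A1 and -0.77 to 0.90 for CYP26C1. Members called lower in NeuDet-D1 against hNMP-D4 numbered 1 in place of 3 with the compared groups alone, where 7 members passed the filter. From hSCNPC-P10 to hMN-D6 they numbered 0 in place of 2 with RLE scaling and 1 with the compared groups alone, and 0 to 3 without 1 library; NCOA3 changed sign with RLE scaling (0.01). The cause was not tested. Every other count of members or genes called stayed within 1.5 times its value. Same-numbered libraries showed no shared deviation (correlations -0.0294 to 0.0401). Whether the numbers pair cultures is not stated in the labels and cannot be told from these correlations. With the replicate block, genes called in hNMP-D4 against hESC numbered 11658 in place of 11701. The number of members called was unchanged in all 9 comparisons. Of 220 group means, 57 moved by over 1 SD with CPM on library totals (0.892 to 1.197 times) and 37 with RLE scaling (0.946 to 1.07 times); means of at least 5 CPM numbered 98 and 97 in place of 96. Members with few counts (CYP26A1, CYP26C1, ALDH1A1) are limited by depth.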
